A study of Homo sapiens with 4 samples.

Results

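Transcripts of voltage-gated sodium and calcium channels were measured by RNA sequencing in IMR-32 cells, a neuroblastoma line of human origin in which MYCN is amplified. Genes were taken by symbol, as SCN followed by a number and A or B, or as CACNA, CACNB or CACNG followed by a digit, and genes annotated as antisense were left out. Of 60612 genes in the count table, 43 met this rule, of which 40 were channel genes and 3 were short noncoding transcripts inside CACNA1C with at most 2 counts each over the 4 libraries. At least 10 counts over the 4 libraries were found for 32 of the 40 channel genes, and 29 of the 40 were abundant enough to be tested.

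All 4 libraries came from IMR-32 cells carrying a doxycycline-inducible short hairpin RNA, and all cells received doxycycline at 1 µg/mL for 48 h. The shControl group (2 libraries, genotype given as WT) carried a control hairpin, and the shNeuroD1 group (2 libraries) carried a hairpin against NeuroD1, a neurogenic transcription factor. The labels do not name the hairpin, and column names in the study's supplementary data give both shNeuroD1 libraries the same one, so a second hairpin may not stand behind any value. The labels do not say whether libraries of a group were separate cultures, so p-values measure only the spread between these libraries, which may be technical.

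Voltage-gated sodium channels open when the membrane depolarises and carry the rising phase of the action potential. Each has a large pore-forming α subunit and smaller β subunits that set its gating and its place in the membrane. Voltage-gated calcium channels turn depolarisation into calcium entry, which drives transmitter release, secretion and gene regulation. Their pore is an α1 subunit, α2δ and β subunits bring it to the surface and tune it, and γ subunits are small membrane proteins, several of which are better known as partners of AMPA-type glutamate receptors. Neuroblastoma arises from sympathetic precursors, which acquire these channels as they become electrically excitable.

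The libraries held 14665210 to 16482463 counts, and 1 CPM (counts scaled to library size and, by TMM, to library composition) equalled 14.7 to 15.9 counts. NEUROD1 was at 418.9 and 414.5 CPM in shControl against 63.7 and 58.2 CPM in shNeuroD1. The 10 neuroblastoma identity genes summed to 2339 to 2365 CPM in shControl and 2137 to 2163 CPM in shNeuroD1. HAND2, a transcription factor of sympathetic cells, was at 787.5 CPM on average in shControl, while 4 of 7 blood cell markers were at 0 in every library.

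Channel transcripts were mostly higher in the shNeuroD1 libraries. Summed over the 40 channel genes, the level was 950.8 and 969.2 CPM in shControl against 1469 and 1489 CPM in shNeuroD1. A large part of this rise lay in SCN3B alone, at 151.2 and 151.1 CPM in shControl against 388.3 and 387.8 CPM in shNeuroD1. Of the 29 tested channel genes, 13 rose past both thresholds (edgeR quasi-likelihood test, Benjamini-Hochberg adjusted p under 0.05, with a change of more than 1 on the log2 scale), against 8.79% of all 17537 genes tested. Past both thresholds 1 was lower, against 5.14% of all genes. At the adjusted p alone, 19 were higher (26.8% of all genes) and 3 were lower (28.2% of all genes), and 7 did not pass. The filter on low counts asked for at least 0.665 CPM, before TMM scaling, in 2 libraries, and SCN4B, CACNA1I, CACNA1F and SCN1A met it only through both shNeuroD1 libraries, where they were higher. The first 3 of these are among the 13, and of the 25 channel genes that met the filter in both groups 10 rose past both thresholds. The median log2 fold change was 0.79 over the tested channel genes and 0.01 over all tested genes. In cultures measured in bulk, fewer cells of a kind and less RNA per cell cannot be told apart.

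**Figure D1:**
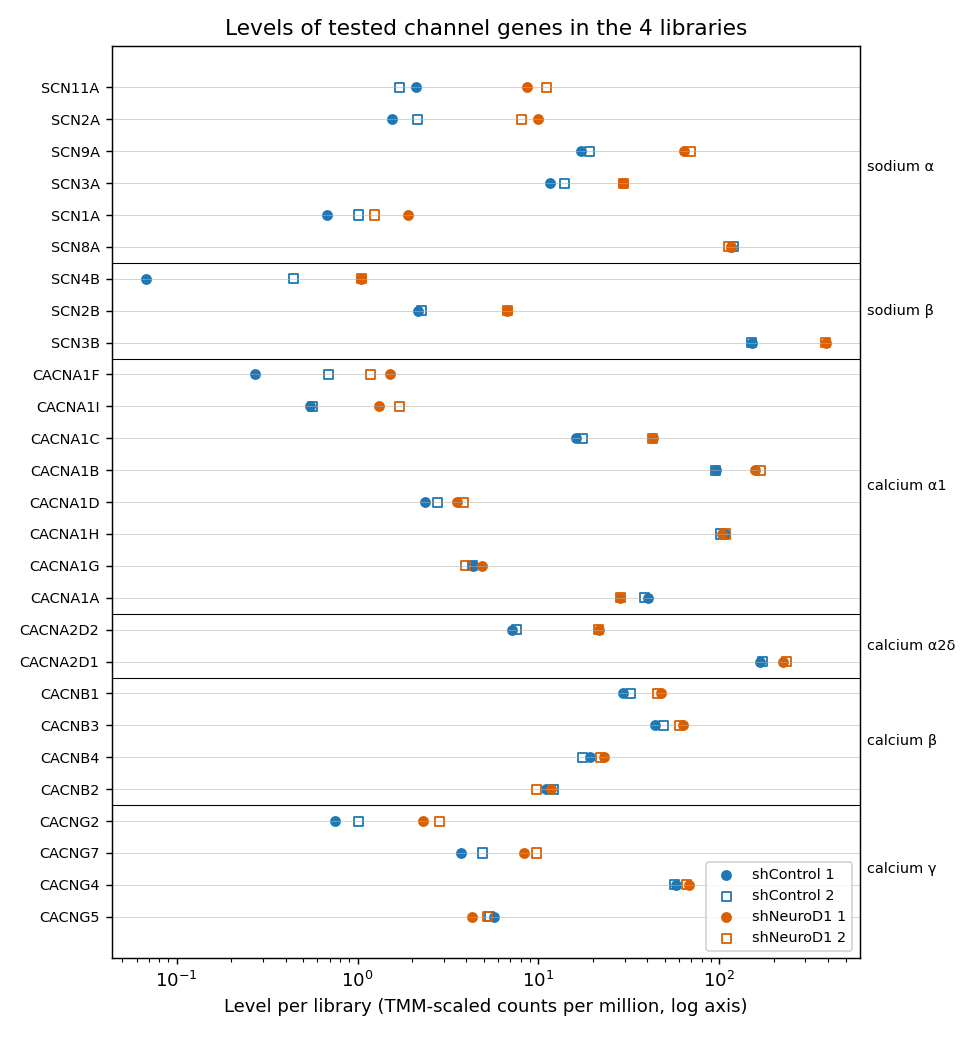
Levels of tested channel genes in the 4 libraries, as TMM-scaled CPM on a log axis, grouped by subunit class, with 1 symbol per library. SCN3B stood near 151 CPM in both shControl libraries and near 388 CPM in both shNeuroD1 libraries, while the symbols of SCN8A and CACNA1H lay on top of each other.

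Among the sodium channel α subunits, 4 of 7 tested genes rose past both thresholds. SCN9A, a channel of sensory and sympathetic neurons (chr2:166195185-166376001, minus strand, hg38), was at 17.3 and 19.1 CPM in shControl against 63.6 and 69.5 CPM in shNeuroD1. Both shNeuroD1 libraries stood far above both shControl libraries (log2 fold change 1.87, SE 0.0793, edgeR adjusted p 2.4e-19). SCN3A, a channel best known from the developing brain (chr2:165087522-165204067, minus strand), was at 11.5 and 13.9 CPM in shControl against 29.4 and 29.4 CPM in shNeuroD1. Its groups did not overlap, and the rise was 2.31-fold (log2 fold change 1.20, SE 0.104, edgeR adjusted p 1.2e-11). On FPKM summed over listed transcript starts, limma gave log2 fold changes of 1.60 for SCN9A and 1.58 for SCN3A (1 FPKM added). Neither passed (limma adjusted p 0.073 and 0.076). SCN3A had no listed start in shControl 1, where it had 170 counts.

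Both remaining α subunits that rose came from low levels. SCN11A, a channel of pain-sensing neurons (chr3:38845769-38950561, minus strand), had 31 and 27 counts in shControl against 131 and 168 counts in shNeuroD1 (log2 fold change 2.37, SE 0.213, edgeR adjusted p 3.4e-11). SCN2A, a main channel of excitatory brain neurons (chr2:165194993-165392310, plus strand), had 23 and 34 counts in shControl against 152 and 123 in shNeuroD1 (log2 fold change 2.27, SE 0.218, edgeR adjusted p 1.4e-10). These were the greatest rises among the 29 tested channel genes.

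SCN8A, the channel of nodes and axon initial segments and the highest α subunit per kilobase of annotated exon, did not pass the test. It was at 116.6 and 120.5 CPM in shControl against 115.5 and 113.3 CPM in shNeuroD1, with a log2 fold change of -0.05 (95% interval -0.15 to 0.05, edgeR adjusted p 0.40), whose sign turned when libraries were scaled by size alone. SCN1A, a channel of inhibitory brain neurons, had 10 and 16 counts in shControl against 29 and 19 in shNeuroD1, and its log2 fold change of 0.89 did not pass (edgeR adjusted p 0.065), while without shNeuroD1 2 it was 1.16 and just passed (edgeR adjusted p 0.04997). SCN4A had 1 count over the 4 libraries, SCN7A had 2 and SCN10A had 3.

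The make-up of the α subunits shifted with these changes. Levels per length were taken per kilobase of exon, with all annotated exons of a gene merged. On this scale SCN8A made up 57.3% and 55.9% of summed α subunit CPM in shControl against 40.6% and 39.0% in shNeuroD1. The share of SCN9A was 9.23% and 9.62% in shControl against 24.3% and 26.0% in shNeuroD1. The share of SCN3A was 8.60% and 9.79% in shControl against 15.7% and 15.4% in shNeuroD1. For each of these 3 genes the groups were well separated. On FPKM summed over listed transcript starts, SCN9A was at 4.72 and 8.31 and SCN8A at 3.51 and 2.82 in shNeuroD1. In shControl SCN9A was at 1.83 and 1.04 FPKM and SCN8A at 2.04 and 3.27. These sums leave out transcripts without a listed start, so they do not settle the order of these genes. An SCN8A last exon starting at chr12:51806282 was at 7.39 and 8.30 FPKM in shControl. In shNeuroD1 this last exon was at 8.43 and 7.93 FPKM.

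**Figure D2:**
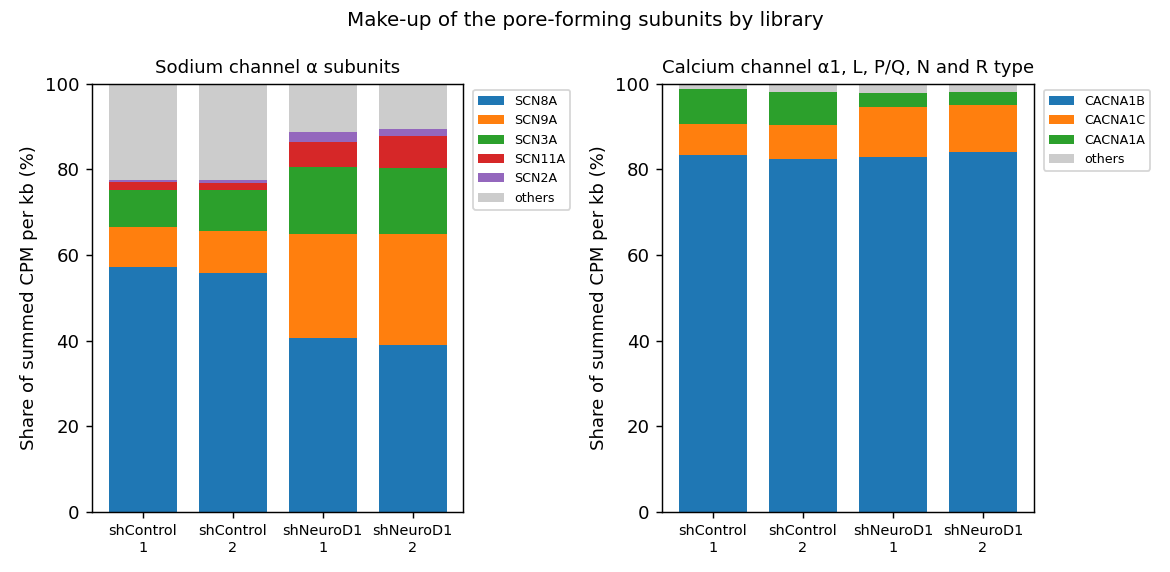
Share of each gene in the summed CPM per kilobase of its subunit class, in percent, with 1 bar per library; the left panel shows sodium channel α subunits and the right panel the calcium channel α1 subunits of L, P/Q, N and R type. SCN9A took 9.23% and 9.62% of the sodium panel in shControl against 24.3% and 26.0% in shNeuroD1, while CACNA1B held 82.4% to 84.0% of the calcium panel in all 4 libraries.

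Among the sodium channel β subunits, SCN3B, SCN2B and SCN4B rose past both thresholds. SCN3B (chr11:123629187-123655244, minus strand), which modulates gating of several α subunits, was at 151.2 and 151.1 CPM in shControl against 388.3 and 387.8 CPM in shNeuroD1. Its libraries agreed within 1 CPM in each group, and the rise was 2.57-fold (log2 fold change 1.36, SE 0.0434, edgeR adjusted p 1.5e-22). Per length, SCN3B was the 3rd highest channel gene in shControl, at 16.0 CPM per kilobase, and the highest in shNeuroD1, at 41.0 CPM per kilobase.

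SCN2B, which is joined to the α subunit by a disulfide bond, had 32 and 36 counts in shControl against 102 and 103 in shNeuroD1. Its groups were well apart (log2 fold change 1.60, SE 0.214, edgeR adjusted p 1.4e-07). SCN4B, its neighbour and the other disulfide-linked β subunit, had 1 and 7 counts in shControl against 16 and 16 in shNeuroD1 (log2 fold change 1.98, SE 0.591, edgeR adjusted p 0.0052). SCN4B met the filter on low counts only in shNeuroD1. The SCN4B call was lost in DESeq2 (adjusted p 0.13) and with no filter on low counts (edgeR adjusted p 0.059). Its log2 fold change was 1.24 without shControl 1 (edgeR adjusted p 0.065) and 3.80 without shControl 2.

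**Figure D3:**
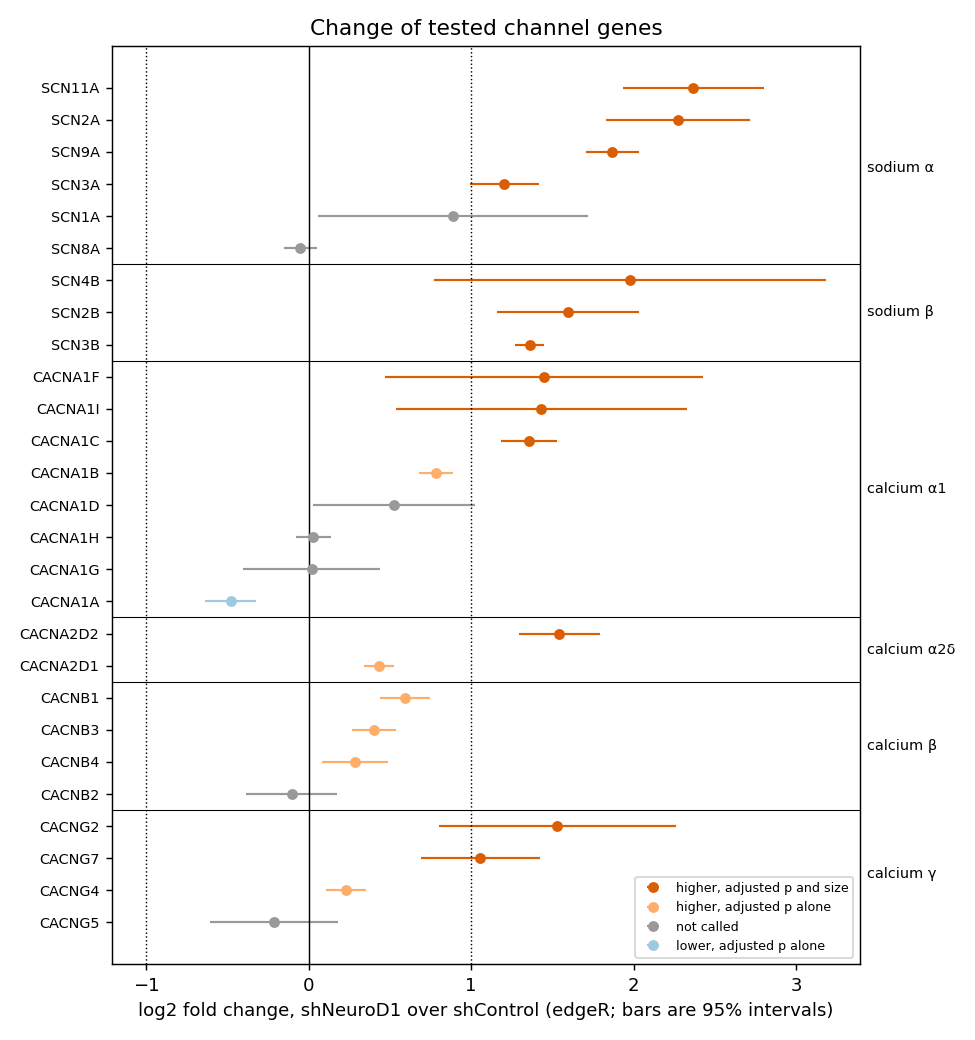
Log2 fold changes of tested channel genes, shNeuroD1 over shControl, from edgeR with 95% intervals; dotted lines mark a log2 fold change of 1 in either direction and colours mark the call. The 13 genes past both thresholds upward included 7 sodium channel genes and 6 calcium channel genes, and the intervals of SCN8A and CACNA1H crossed 0.

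Of 18 tested calcium channel genes, 6 rose past both thresholds and none fell past both, with a median log2 fold change of 0.48. At the adjusted p alone 12 calcium channel genes were higher, 1 was lower and 5 did not pass. Of 11 tested sodium channel genes, 7 rose past both thresholds, with a median log2 fold change of 1.36, and at the adjusted p alone 7 were higher, 2 were lower and 2 did not pass. The difference between the families was not tested.

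Among the calcium channel α1 subunits, CACNA1C (chr12:1970786-2697950, plus strand), an L-type channel of heart, smooth muscle and neurons, was at 16.1 and 17.4 CPM in shControl against 43.3 and 42.6 CPM in shNeuroD1. The groups were well apart (log2 fold change 1.36, SE 0.0858, edgeR adjusted p 7.2e-15). CACNA1B, the N-type channel of sympathetic nerve endings, was the highest α1 subunit of the high-voltage types and was higher at the adjusted p alone. Its level was 95.5 and 95.1 CPM in shControl against 158.3 and 170.1 CPM in shNeuroD1 (log2 fold change 0.79, SE 0.0505, edgeR adjusted p 1.1e-14). CACNA1A, the P/Q-type channel of central synapses, was lower at the adjusted p alone, at 40.5 and 38.9 CPM in shControl against 28.3 and 28.6 CPM in shNeuroD1 (log2 fold change -0.48, SE 0.0775, edgeR adjusted p 3.4e-06).

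The T-type α1 subunits, which open near the resting potential, were represented almost wholly by CACNA1H, which made up 95.1% to 96.2% of their CPM per kilobase in the 4 libraries. CACNA1H was at 107.3 and 101.1 CPM in shControl against 103.6 and 108.9 CPM in shNeuroD1. Its groups overlapped, and its log2 fold change was 0.03 (95% interval -0.08 to 0.14, edgeR adjusted p 0.67), with a negative sign when shControl 2 or shNeuroD1 2 was left out. With library size alone it was called at the adjusted p (0.14, edgeR adjusted p 0.023), a scaling that put the all-gene median at 0.12. The other T-type genes were far lower. CACNA1G had 64 and 69 counts against 74 and 60, and CACNA1I had 8 and 9 counts against 20 and 26. CACNA1I met the filter on low counts only in shNeuroD1, where it was higher (log2 fold change 1.43, SE 0.439, edgeR adjusted p 0.0064). Its call was lost in DESeq2 (adjusted p 0.14) and, in edgeR, without shControl 1 (adjusted p 0.061), shControl 2 (0.059) or shNeuroD1 2 (0.090).

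CACNA1F, an L-type channel known from the retina, had 4 and 11 counts in shControl against 23 and 18 in shNeuroD1 (log2 fold change 1.45, SE 0.480, edgeR adjusted p 0.011). The CACNA1F call was lost in DESeq2 (adjusted p 0.18), with no filter on low counts (edgeR adjusted p 0.061) and without shNeuroD1 1 (0.10). Its log2 fold change was 0.95 without shControl 1 (edgeR adjusted p 0.12) and 2.28 without shControl 2. CACNA1D, an L-type channel of endocrine cells and pacemakers, had 35 and 44 counts against 54 and 59 (log2 fold change 0.52, edgeR adjusted p 0.070). CACNA1E had 1 and 1 counts against 3 and 5 and was not tested, and CACNA1S, the skeletal muscle channel, had 0 counts, which allows up to 3 counts in a library.

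The α2δ subunits, which raise the number of calcium channels at the surface, both rose among the 2 tested. CACNA2D2 (chr3:50362799-50504244, minus strand) was at 7.19 and 7.56 CPM in shControl against 21.6 and 21.5 CPM in shNeuroD1 (log2 fold change 1.54, SE 0.123, edgeR adjusted p 2.1e-12). CACNA2D1, the highest channel gene per length in shControl, was at 168.1 and 173.4 CPM in shControl against 225.9 and 234.7 CPM in shNeuroD1 (log2 fold change 0.43, SE 0.0450, edgeR adjusted p 9.0e-10), so it passed the adjusted p alone. CACNA2D4 had 2 and 4 counts against 8 and 6 and was not tested, and CACNA2D3 had 6 counts in all.

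Of the cytoplasmic β subunits, 3 of 4 were higher at the adjusted p alone and none passed both thresholds. CACNB1 was at 29.3 and 32.3 CPM in shControl against 47.9 and 45.4 CPM in shNeuroD1 (log2 fold change 0.60, SE 0.0756, edgeR adjusted p 4.8e-08). CACNB3, the highest β subunit per length, was at 44.2 and 49.0 CPM against 63.4 and 60.0 CPM (log2 fold change 0.40, edgeR adjusted p 4.9e-06). CACNB4 was at 19.3 and 17.6 CPM against 22.9 and 21.9 CPM (log2 fold change 0.28, edgeR adjusted p 0.016), a call that was lost in DESeq2 (adjusted p 0.24) and, in edgeR, with no filter on low counts (0.069) and without shControl 1 (0.053), shControl 2 (0.14) or shNeuroD1 1 (0.11). CACNB2 was at 11.1 and 12.1 CPM against 11.8 and 9.79 CPM, overlapped between the groups (log2 fold change -0.10, edgeR adjusted p 0.54), and turned in sign with library size alone or without shNeuroD1 2.

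The γ subunits ranged from strong rises at low counts to no call. CACNG2, an AMPA receptor partner also called stargazin, had 11 and 16 counts in shControl against 35 and 43 in shNeuroD1 (log2 fold change 1.53, SE 0.358, edgeR adjusted p 0.00051). CACNG7 (chr19:53909335-53943941, plus strand), another AMPA receptor partner, was at 3.73 and 4.91 CPM in shControl against 8.35 and 9.72 CPM in shNeuroD1 (log2 fold change 1.06, SE 0.180, edgeR adjusted p 8.2e-06). This lay close to the size threshold, and CACNG7 fell short of it without shControl 1 or without shNeuroD1 2. CACNG4, the highest γ subunit per length, was at 58.0 and 56.4 CPM against 67.7 and 66.3 CPM (log2 fold change 0.23, edgeR adjusted p 0.0017, 0.081 in DESeq2). CACNG5 had 84 and 85 counts against 65 and 80 and did not pass (edgeR adjusted p 0.36). CACNG3 had 1 and 2 counts against 7 and 7 and was not tested, CACNG1 had 5 counts in all, CACNG8 had 2 and CACNG6 had 0.

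The order of levels per length was headed by different genes in each group. This order depends on the merged annotated exon length, which was 43159 bases for CACNA1A and 9897 bases for CACNA1B. In shControl the 5 highest channel genes per kilobase of exon were CACNA2D1 (19.0 CPM per kilobase), CACNG4 (16.9), SCN3B (16.0), CACNA1H (12.1) and CACNA1B (9.63). In shNeuroD1 they were SCN3B (41.0), CACNA2D1 (25.6), CACNG4 (19.8), CACNA1B (16.6) and CACNA1H (12.3). SCN9A was not among the 10 highest in shControl and stood 9th in shNeuroD1, at 4.84 CPM per kilobase.

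Genes that lie side by side did not all get the same call, and a gene without a call may still have changed. In the chromosome 2 cluster of 5 sodium channel genes (chr2:165087522-166494326), SCN3A, SCN2A and SCN9A rose past both thresholds. SCN1A was higher as well but did not pass (log2 fold change 0.89), and SCN7A had too few counts to test. SCN4B and SCN2B, which lie within 43.3 kb of each other on chromosome 11, both rose. On chromosome 17 CACNG4 was higher at the adjusted p alone while CACNG5 did not pass, and on chromosome 19 CACNG7 rose beside CACNG8 and CACNG6, neither of which was tested.

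Counting is not stated to use strand, so reads of a channel gene and of an overlapping gene on the other strand cannot be told apart. For the tested genes above, exons shared with any single other gene covered at most 9.91% of the exon bases (SCN3A, with an antisense gene); the value was 9.59% for CACNA2D2 and 8.17% for SCN9A, which overlaps SCN1A-AS1. SCN1A-AS1 itself had 3 and 4 counts in shControl against 9 and 9 in shNeuroD1.

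Transcript forms were read from the tables that the authors deposited of transcript starts, ends and splicing events, in FPKM (fragments scaled for transcript length and library size). These hold assembled transcripts and list only events above 0, and 22 of the 40 channel genes had a listed start in at least 1 library. With 2 libraries in each group no exact permutation test can reach a p under 0.05, so these values are descriptions.

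SCN9A transcripts had 1 first exon that was listed in all 4 libraries, with its 5′ end at chr2:166375944, the start that RefSeq gives. Its FPKM was 1.83 and 1.04 in shControl against 4.72 and 7.10 in shNeuroD1. SCN2B transcripts began at chr11:118176639, also the RefSeq start, and this first exon was not listed in shControl 1, at 0.48 FPKM in shControl 2 and at 1.00 and 1.07 FPKM in shNeuroD1. The sequences before these starts (RefSeq, GRCh38.p14, positions -250 to -31 from the start) are shown because both genes rose and their deposited transcripts begin at the RefSeq start. Capitals mark the E-box motifs searched, CAGATG with its reverse complement CATCTG and CAGCTG, which overlap no other motif here.
SCN9A promoter, chr2:166375975-166376194, minus strand: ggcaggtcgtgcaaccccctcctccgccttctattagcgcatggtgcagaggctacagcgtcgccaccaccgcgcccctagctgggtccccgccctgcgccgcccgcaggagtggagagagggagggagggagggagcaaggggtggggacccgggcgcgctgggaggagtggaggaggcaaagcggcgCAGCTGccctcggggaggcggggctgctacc
SCN2B promoter, chr11:118176670-118176889, minus strand: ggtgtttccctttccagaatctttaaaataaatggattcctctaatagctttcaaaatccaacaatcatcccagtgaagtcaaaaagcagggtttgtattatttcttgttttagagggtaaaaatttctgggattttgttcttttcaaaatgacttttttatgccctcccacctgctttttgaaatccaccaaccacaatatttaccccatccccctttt

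The SCN9A sequence had 72.7% G and C and 18 CG pairs, with CAGCTG starting at position -61. The SCN2B sequence had 35.5% G and C, no CG pair and neither motif. Over promoter windows from 250 bases before to 50 bases after the start, CAGCTG stood in 17.9% of all 35116 windows and CAGATG or its complement in 14.7%. Windows were given for 26 of the 40 channel genes, and of their 40 windows 10 held CAGCTG and 9 held CAGATG or its complement. Some genes had several windows, CACNB2 among them, so these windows belonged to 8 and 7 of the 26 genes. They include genes that were not called or not tested, and the difference from all windows was not tested.

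First exons of CACNG7 and CACNB3, chosen after their values were seen, are given as levels without a test. A CACNG7 first exon starting at chr19:53909335 was at 0.035 and 0.43 FPKM in shControl against 1.74 and 2.05 FPKM in shNeuroD1. The other, starting at chr19:53912737, was at 0.91 and 0.99 FPKM in shControl against 0.087 and 0.049 FPKM in shNeuroD1. For CACNB3, a first exon starting at chr12:48814432 was at 5.33 and 2.77 FPKM in shControl and was not listed in either shNeuroD1 library. The CACNB3 first exon starting at chr12:48814893 was at 1.03 and 2.27 FPKM in shControl against 7.03 and 7.07 FPKM in shNeuroD1. Another CACNB3 first exon, starting at chr12:48818386, was at 3.003 and 4.41 FPKM in shControl against 5.34 and 3.31 FPKM in shNeuroD1, which overlap. Apart from the first of these CACNB3 exons, all were listed in both groups.

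**Figure D4:**
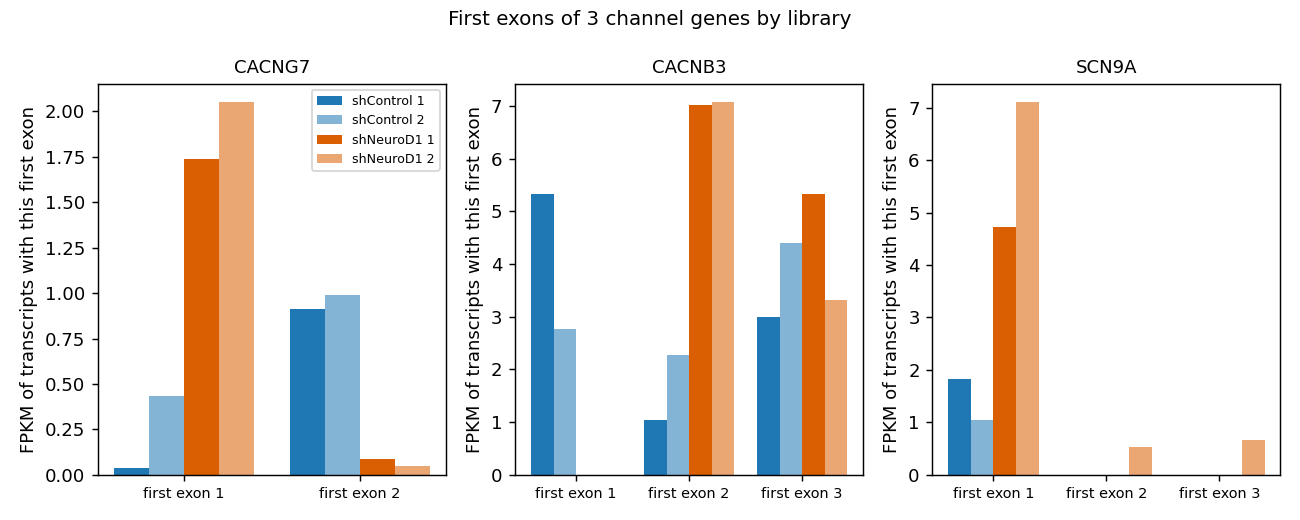
FPKM of transcripts by first exon for CACNG7, CACNB3 and SCN9A, with 1 bar per library and first exons numbered from the 5′ side; an absent bar is a first exon not listed in that library. The first CACNG7 exon was at 1.74 and 2.05 FPKM in shNeuroD1 against 0.035 and 0.43 in shControl, and the second ran the other way.

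Exon events of channel genes were few: 8 paired events in 5 channel genes had both forms at 1 FPKM or more on average and a sum of at least 1 FPKM in every library. Of these 8, 2 had a share of the included form that did not overlap between groups and differed by at least 0.2, both higher in shNeuroD1, against 9.04% of 4113 such events over all genes. Over all genes 7.2% of events were lower by the same rule.

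The first was a 20-base coding exon of CACNB1 (chr17:39185131-39185150, minus strand), which lies in the linker between the SH3 and guanylate kinase domains of the β1 subunit. The form with it was at 2.07 and 2.23 FPKM in shControl against 4.41 and 6.08 FPKM in shNeuroD1, and the form without it at 1.52 and 1.30 against 1.09 and 0.53 FPKM. Its share was 0.58 and 0.63 in shControl against 0.80 and 0.92 in shNeuroD1. The event fell outside the rule without shControl 1, and without shNeuroD1 2, where the difference was 0.198. An alternative 155-base exon on its 5′ side (chr17:39185950-39186104) was at 0.91 and 0.011 FPKM in shControl, at 0.0046 FPKM in shNeuroD1 1 and unlisted in shNeuroD1 2. The form without the 20-base exon had the same FPKM in every library as the form without this exon. The share above thus leaves out transcripts with the alternative exon. Both lengths leave the same remainder after division by 3, so either exon keeps one reading frame, while transcripts with neither or both are out of that frame. Each calcium channel β subunit gene has a 20-base coding exon of this kind in GENCODE 29, shown here because their sequences line up base for base. Capitals mark the 14 of 20 positions that are identical in all 4.
CACNB1, chr17:39185131-39185150, minus strand: CcAAaCAGAAGCAgAAgtcG
CACNB2, chr10:18514511-18514530, plus strand: CtAAgCAGAAGCAgAAatcG
CACNB3, chr12:48824949-48824968, plus strand: CcAAgCAGAAGCAaAAgcaG
CACNB4, chr2:151870842-151870861, minus strand: CaAAaCAGAAGCAaAAagtG

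Sequence identity with the CACNB1 exon was 17 of 20 bases for CACNB2, 16 for CACNB3 and 15 for CACNB4. The CACNB3 exon, for its part, had a share of 0.98 and 0.99 in shControl against 0.99 and 0.97 in shNeuroD1, so nearly all assembled CACNB3 transcripts held it in every library. The CACNB4 exon had shares of 0.98 and 0.71 in shControl against 1 and 0.72 in shNeuroD1, which overlap. The CACNB2 exon was below 1 FPKM in every library.

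The other event past the rule was a retained stretch of SCN3B between chr11:123638324 and chr11:123641342. Its share was 0 and 0.15 in shControl against 0.47 and 0.45 in shNeuroD1, with the retained form not listed in shControl 1, at 0.80 FPKM in shControl 2 and at 6.55 and 5.26 FPKM in shNeuroD1. The spliced form it was set against was at 1.29 and 4.48 FPKM in shControl against 7.30 and 6.43 FPKM in shNeuroD1. Against a more abundant spliced form, with the intron ending at chr11:123642446 (9.41 and 8.15 FPKM in shControl, 33.2 and 19.6 FPKM in shNeuroD1), the retained share was 0 and 0.090 in shControl against 0.16 and 0.21 in shNeuroD1, a difference of 0.14 that does not reach the rule. A neighbouring SCN3B intron (chr11:123642671-123645587) went the other way, with a retained share of 0.23 and 0.39 in shControl against 0.14 and 0.21 in shNeuroD1, and did not reach the rule. The assembled ends of these exons differed between libraries, and with the sum at 2 FPKM or more in every library this event dropped out.

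**Figure D5:**
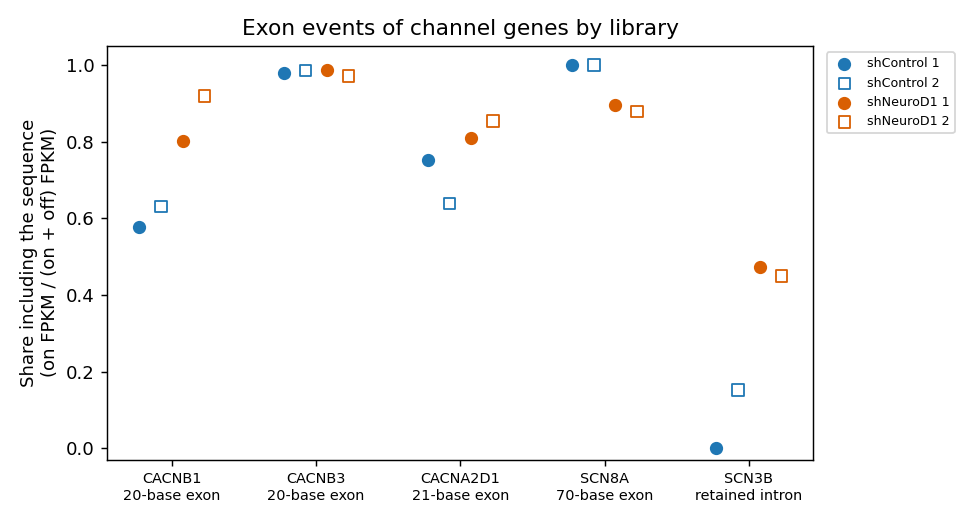
Share of the form that includes each sequence, as on FPKM over the sum of on and off FPKM, for 5 events of channel genes, with 1 symbol per library. The CACNB1 exon went from 0.58 and 0.63 in shControl to 0.80 and 0.92 in shNeuroD1, while the CACNB3 exon stayed between 0.97 and 0.99.

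A pair of exons outside the rule are given because the genes are abundant, and were chosen after their values were seen. A 21-base coding exon of CACNA2D1 (chr7:81983314-81983334, minus strand) was included at a share of 0.75 and 0.64 in shControl against 0.81 and 0.85 in shNeuroD1, a difference of 0.14. Its sequence adds 21 bases without a change of frame.
CACNA2D1, chr7:81983314-81983334, minus strand: caaaaaagggcaaaatgaagg

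In SCN8A, a 70-base exon (chr12:51780202-51780271, plus strand) that GENCODE 29 holds only in a noncoding transcript was at 9.87 and 11.3 FPKM in shControl against 9.06 and 8.24 FPKM in shNeuroD1. Transcripts that skip it were unlisted in shControl against 1.07 and 1.13 FPKM in shNeuroD1, so its share was 1 in both shControl libraries and 0.89 and 0.88 in shNeuroD1. The coding exon that follows it in the annotation, of 123 bases (chr12:51780649-51780771), was listed only as skipped, in shNeuroD1. Read on from the coding exon before it, the 70-base exon meets a stop codon after 9 codons, marked in capitals.
SCN8A, chr12:51780202-51780271, plus strand: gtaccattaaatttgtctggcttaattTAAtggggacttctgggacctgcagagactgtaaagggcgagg

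Other genes of these pathways are set against the shares over all tested genes, which were 8.79% higher and 5.14% lower past both thresholds and 26.8% higher and 28.2% lower at the adjusted p alone. The lists were written with earlier results of these data known. Of 15 tested genes listed as sodium channel partners, 4 rose past both thresholds and none fell past both. At the adjusted p alone 9 of the listed genes were higher and 2 lower. ANK2, an ankyrin that ties channels to the membrane skeleton, was at 128.3 CPM on average in shControl and 363.8 CPM in shNeuroD1 (log2 fold change 1.50, edgeR adjusted p 3.5e-21). PACSIN1, an endocytosis protein (1.59, edgeR adjusted p 2.6e-05), and FGF14, an intracellular partner of the α subunit tail (1.19, edgeR adjusted p 1.1e-06), rose as well on the log2 scale. FGF12 was the other gene past both thresholds (1.16). Whether PACSIN1 acts on these channels was not tested. The median over the list was 0.33.

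Genes listed as calcium channel partners were split. Of 16 tested, 2 rose and 1 fell past both thresholds, and 6 were higher and 3 lower at the adjusted p alone, near the shares over all genes, with a median log2 fold change of 0.14. Without shControl 2 only 1 gene passed both thresholds. RIMBP2, which ties calcium channels to the release site, was at 67.0 CPM on average in shControl and 184.2 CPM in shNeuroD1 (log2 fold change 1.46, edgeR adjusted p 1.9e-21). CABP1, a calcium sensor that binds L-type channels, rose (log2 fold change 1.37, edgeR adjusted p 2.7e-05). SLITRK2, a synaptic membrane protein, fell (log2 fold change -2.40, edgeR adjusted p 0.0013). It had 11 and 22 counts in shControl against 4 and 2 in shNeuroD1, and met the filter on low counts only in shControl. Whether SLITRK2 acts on these channels was not tested.

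Genes that store and remove calcium went both ways. Of 21 tested, 4 rose and 3 fell past both thresholds, against 8.79% and 5.14% of all genes. At the adjusted p alone 7 were higher and 8 lower, against 26.8% and 28.2% of all genes. The median log2 fold change was -0.09. The greatest changes were those of SLC24A2 (log2 fold change -2.38), SLC24A3 (-2.16) and SLC8A3 (1.56). SLC24A2 and SLC24A3 are potassium-dependent sodium-calcium exchangers and SLC8A3 is a sodium-calcium exchanger. Their edgeR adjusted p values were 1.5e-07, 9.9e-06 and 0.0028. SLC8A3 had 9 and 10 counts in shControl against 19 and 37 in shNeuroD1, and met the filter on low counts only in shNeuroD1. SLC24A3 had 39 and 52 counts against 7 and 13, and both libraries of a group met the filter only in shControl.

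Among 17 tested genes of the sodium leak channel and the sodium pump, NALCN and ATP1B1 passed both thresholds in opposite directions. NALCN, the sodium leak channel that sets resting excitability, was at 2.01 CPM on average in shControl and 6.73 CPM in shNeuroD1 (log2 fold change 1.75, edgeR adjusted p 8.3e-08). ATP1B1, a β subunit of the sodium pump, was at 183.4 and 90.5 CPM on average (log2 fold change -1.02, edgeR adjusted p 9.3e-18). ATP1B1 lay at the size threshold, and 1 gene in place of 2 passed both thresholds with library size alone, without shControl 1 or without shNeuroD1 1. At the adjusted p alone 2 genes were higher and 5 lower, and the median was -0.10.

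REST, the repressor that keeps neuronal genes including sodium channels silent in other cells, was lower at the adjusted p alone, at 44.7 CPM on average in shControl and 31.3 CPM in shNeuroD1 (log2 fold change -0.51, edgeR adjusted p 8.6e-07). Of the 15 tested genes of its silencing complex, 5 were higher and 5 lower at the adjusted p alone and none passed both thresholds in edgeR, where 10 had an adjusted p under 0.05. These counts are near the shares over all genes.

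Markers of other cells were read beside these results. Over all tested genes, 8.79% were higher and 5.14% lower past both thresholds. At the adjusted p alone these shares were 26.8% and 28.2%. Of 5 tested Schwann and glial cell markers, 3 rose past both thresholds, among them FABP7 and S100B. S100B had 23 and 3 counts in shControl against 25 and 31 in shNeuroD1. For S100B both libraries of a group met the filter on low counts only in shNeuroD1, where it was higher. The list of 7 summed to 5.56 and 5.67 CPM in shControl against 10.6 and 12.7 CPM in shNeuroD1. SOX10, which defines that lineage, was at 0.81 and 0.89 CPM on average and did not pass (edgeR adjusted p 0.85), and ERBB3 and GFAP were not tested. Mesenchymal markers summed to 229.2 and 230.4 CPM in shControl against 160.9 and 156.0 CPM in shNeuroD1, with 2 of 6 tested rising past both thresholds (COL3A1 and LUM) and 4 lower at the adjusted p alone, and 1 of 8 at 0 in every library. Muscle markers summed to 15.7 and 15.1 CPM against 9.99 and 9.52 CPM, with 1 of 7 at 0. Of 3 tested muscle markers, 1 was lower at the adjusted p alone. Of the 10 tested neuroblastoma identity genes 5 were higher and 4 lower at the adjusted p alone, TH by 2.48 and DBH by -1.01 on the log2 scale. The part of these shifts in the channel results was not tested.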

How the data were processed

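RNA sequencing was analysed for 2 shControl and 2 shNeuroD1 libraries, grouped by the sample titles. The authors deposited raw read counts per gene. The submitters' processing notes name cutadapt 1.9.1, HISAT2 2.0.1, HTSeq 0.6.1 and DESeq2 with build hg38, and use of strand in counting is not given in the sources used here. The authors also deposited FPKM of transcript starts, ends and splicing events per library. The tool for these is not given in the sources used here, and unlisted events were read as 0 only in shares. Symbols matched 60588 of 60612 gene IDs, and coordinates are those of GENCODE 29.

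Counts were tested in edgeR 4.0.16 under R 4.3.3 (filterByExpr with a minimum count of 10, TMM, quasi-likelihood F test, two-sided, Benjamini-Hochberg over 17537 genes). The standard error is the log2 fold change divided by the square root of F. Replicate numbers did not pair the libraries (correlation of deviations 0.03), and libraries of a group differed by more than sampling noise (chi-square over degrees of freedom 2.40 and 1.54). Exons were paired by start and end within exact event types, and 120905 of 626249 rows of inexact types were not used. Alternatives were DESeq2 1.42.0, limma 3.58.1 on log2 FPKM of genes summed over transcript starts (mean of at least 1 FPKM), other scalings and filters, a replicate block and leaving out each library. Channel genes with 10 counts or more are named; those past both thresholds or with a mean of at least 10 CPM are given by library, as are REST, NALCN and up to 3 genes per list past both thresholds with the greatest change. Members, lists and tests were chosen with earlier results of these data known. Some genes are not reported here. Intervals of log2 fold changes come from this fit and include the spread between libraries; count limits cover counting error only.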

Additional observations from a re-analysis of the deposited data

Results flagged for a closer look

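CACNA1C-AS1, an antisense gene inside CACNA1C that was left out of the channel genes, gave a signal above the control level. It had 34 and 43 counts in shControl against 75 and 74 in shNeuroD1 (log2 fold change 0.96, SE 0.228, edgeR adjusted p 0.00063). Its exons share 564 bases with those of CACNA1C on the other strand, which is 21.4% of its exon bases and 2.95% of those of CACNA1C.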

How the results depend on the processing

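Calls on counts held under most settings. DESeq2 size factors, library size alone and the replicate block each gave 13 channel genes higher past both thresholds, all 13 the same genes, and the replicate block changed no count of calls (median 0.79). No filter gave 11, a mean of at least 1 CPM 11 and the DESeq2 Wald test 10, and leaving out 1 library gave 9 (shControl 1) to 12. CACNA1F, CACNA1I and SCN4B were lost in DESeq2, and CACNA1F, CACNA1I, CACNG7 and SCN4B without shControl 1. With 1 library left in a group, that library is assumed to vary like the other group. Library size alone moved the median of all genes to 0.12, and under it CACNB2 (0.0073) and SCN8A (0.060) turned in sign. SCN8A also turned in limma on FPKM summed over listed starts, to 0.20 with 1 added and 0.27 with 0.1 added. Those sums leave out SCN8A transcripts without a listed start. With 1 library left out, CACNA1H ranged from -0.014 (without shControl 2) and -0.0099 (without shNeuroD1 2) to 0.071, CACNA1G from -0.14 (without shNeuroD1 1) to 0.16, and CACNB2 from -0.25 to 0.020 (without shNeuroD1 2). None of these turned values was called, while CACNA1H passed the adjusted p with library size alone (0.14, edgeR adjusted p 0.023).

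The median of the tested channel genes was 0.90 with library size alone, 0.96 with no filter, 0.61 at a mean of at least 1 CPM and 0.58 to 0.78 when 1 library was left out. Limma on FPKM, as log2 with 1 or 0.1 added, tested 14 channel genes, and each gave 1 higher and 0 lower past both thresholds, 1 higher and 0 lower at the adjusted p alone and 1 list gene past both thresholds, with medians of 0.45 and 0.58. Of the 13 genes, 4 were tested there and 1 was called; the cause was not tested. Lists held 16 genes past both thresholds in edgeR and 14 to 15 when 1 library was left out. Events past the rule numbered 1 where the sum had to be 2 FPKM and 2 to 5 when 1 library was left out, with 5 without shControl 1; the cause was not tested. The other values for single channel genes were judged by the adjusted p alone, without the size threshold. Under other settings 163 kept direction and call, 30 lost the call and 3 gained it.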
